A study of Mus musculus with 12 samples.

Results

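The genes described here are 45 that encode proteins of the major spliceosome's small nuclear ribonucleoproteins (snRNPs). They were taken from the 47517 gene rows of the deposited table by a fixed list of symbols, which does not hold every such gene. The list covers 7 Sm core genes, 6 U1 genes, 12 U2 genes, 7 LSm core genes, 4 U4/U6 genes, 6 U5 genes and 3 genes of the U4/U6.U5 tri-snRNP. All 45 were present and all 45 passed the filter on low counts. RNA was sequenced from mouse embryonic fibroblasts made from E13.5 C57BL/6 embryos and immortalised with SV40 large T antigen, in 12 libraries that form 6 groups of 2. The study asked what the loss of Ssb1 and Ssb2, a pair of single-stranded DNA binding proteins encoded by Nabp2 and Nabp1, does to the transcriptome.

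Cre-positive cells carried Rosa-CreERT2, a tamoxifen-activated recombinase driven from the Rosa locus, and floxed alleles of both genes, and their libraries came from cells given 4-hydroxytamoxifen (4-OHT) for 5 days, cells given ethanol, the vehicle, for 5 days, and untreated cells. Cre-negative cells carried the floxed alleles without Cre and came in the same 3 states. The genotype label of the Cre-positive samples spells the first allele Ssb1 Fl/F, the protocol gives it as flox/flox, and every group therefore carried floxed alleles. The protocol names an SV40 vector with puromycin resistance and one with blasticidin resistance and does not say which line received which, or how many lines each genotype stands for. Whether a group's 2 libraries stem from 2 cultures is not labelled, and the p-values below cover library-to-library spread, possibly technical in origin.

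In spliceosomal snRNPs an snRNA is bound by a ring of Sm proteins, on U1, U2, U4 and U5, or by a ring of LSm proteins, on U6, and by proteins specific to each particle. U1 binds the 5′ splice site and U2 the branch site, after which the U4/U6.U5 tri-snRNP joins; U4 is then unwound from U6 and the catalytic centre forms around the U5 protein Prpf8. These proteins are made in every dividing cell, embryonic fibroblasts included, and most are essential for growth.

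Library totals ranged from 20201855 to 36367012 counts. The Cre-positive 4-OHT libraries had the highest totals (36367012 and 30725424) and the lowest TMM scaling factors (0.972 and 0.978) of the series. Nabp1 and Nabp2 were together at 8.24 and 9.06 CPM (counts scaled to library total) in Cre-positive 4-OHT libraries and between 34.3 and 38.6 CPM in the other Cre-positive libraries, and each fell in Cre-positive cells with 4-OHT; in Cre-negative libraries they summed to 50.9 to 57.5 CPM. Of 11 fibroblast markers, 8 were above 1 CPM in every group, while Thy1, Dcn and Lum were at or near 0. Their levels differed between the genotypes. Col1a1, Col1a2, Col3a1, Pdgfra and Pdgfrb were higher in untreated Cre-positive than in untreated Cre-negative libraries. Col3a1 was at 632 and 646.4 CPM in the former and 160.3 and 155.5 CPM in the latter. Vim and Fn1 went the other way, with Fn1 at 1092 and 1171 CPM against 1306 and 1583 CPM. Summed epithelial, haematopoietic, endothelial and skeletal muscle markers stayed at or below 4.34 CPM in every library. Summed neural markers were at 74.8 to 77.1 CPM with 4-OHT, 77.4 to 78.2 CPM with ethanol and 63.6 to 65.6 CPM untreated in Cre-positive libraries, and at 89.8 to 94.6 CPM with 4-OHT, 80.2 to 87.9 CPM with ethanol and 76.7 to 76.8 CPM untreated in Cre-negative libraries. Sox2 was at 30.5 and 30.1 CPM in untreated Cre-positive libraries and 11.9 and 10.8 CPM in untreated Cre-negative libraries, and Map2 was at 28.3 and 31 CPM in untreated Cre-positive libraries and 62.5 and 63.9 CPM in untreated Cre-negative libraries. The part of these markers in the results was not tested. In bulk RNA a lower level can stand for less RNA per cell or for fewer cells that express the gene, and these cannot be told apart.

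A property that decides how far some of the 45 values can be read is the presence of processed pseudogenes, intronless genomic copies of an mRNA. The transcripts of 14 of the genes had at least 1 such copy in the GRCm38 annotation (at least 95% identity over at least 100 bases and at least 50% of the copy), and for 13 of them 17 copies had rows of their own in the table. Windows of 75 bases, the read length, from the coding sequence show why counts can pass between a gene and its copy; capitals mark the bases that differ, and the windows run 5′ to 3′ on the gene's own strand. Snrpf (chromosome 10) and Gm13092 (chromosome 4) differed at 3 of 258 aligned bases, and the window with all 3 is shown.
Snrpf: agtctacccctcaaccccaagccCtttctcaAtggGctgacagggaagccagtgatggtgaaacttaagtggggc
Gm13092: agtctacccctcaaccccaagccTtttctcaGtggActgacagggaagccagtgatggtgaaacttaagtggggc
Snrpg (chromosome 6) and Gm8186 (chromosome 17) had the same base at all 231 aligned positions, so each of their 157 windows was identical, as in this first window of the coding sequence, which has no capitals.
Snrpg: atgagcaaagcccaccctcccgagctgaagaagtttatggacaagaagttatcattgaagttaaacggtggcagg
Gm8186: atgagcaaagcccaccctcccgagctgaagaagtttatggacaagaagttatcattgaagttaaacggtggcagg
Snrpc (chromosome 17) and Gm2991 (chromosome 15) differed at 6 of 426 aligned bases, and 23.6% of their windows were identical.
Snrpc: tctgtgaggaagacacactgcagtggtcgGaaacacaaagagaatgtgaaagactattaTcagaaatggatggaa
Gm2991: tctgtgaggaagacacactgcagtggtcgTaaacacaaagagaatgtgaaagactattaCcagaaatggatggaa

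Across the 12 libraries the copies held 91.3% of the counts of Snrpf plus its copy, 87.0% for Lsm7, 80.5% for Lsm5, 71.1% for U2af1 and 69.7% for Snrpg. The share was 53.9% for Snrpc, 49.6% for Snrpe, 48.3% for Sf3b4, 40.8% for Snrpd1 and 26.7% for U2af2. It was smaller for Lsm6 (13.4%), Luc7l2 (13.1%) and Snrpd2 (1.39%). The 5 highest shares thus belong to short mRNAs of the Sm and LSm cores and to U2af1, for which the deposited gene row held the smaller portion of the matching counts. Within the 169 aligned bases of Lsm7 and Gm10146, which cover 54.7% of the copy's transcript, every 75-base window was identical. For Lsm5 and Gm7846 it was 86.7% of windows, for Snrpf 80.4% and for U2af1 77.9%. Windows were counted only within aligned stretches. The libraries were read as pairs, so a window of 1 read can overstate how many read pairs match both gene and copy. The values of all 13 genes with copies in the table are uncertain for this reason, also where this is not repeated below. The value of gene plus copies is given beside a gene's own where the call differs in a comparison. It is also given where the sign differs for 4-OHT over ethanol in Cre-positive cells.

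**Figure D1:**
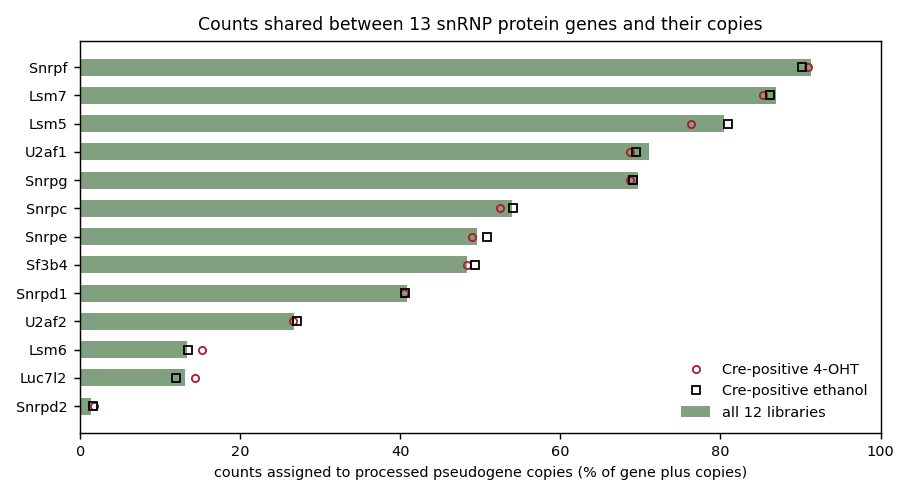
Share of counts assigned to processed pseudogene copies, in percent of the counts of gene plus copies, for the 13 genes with copies in the table; bars give all 12 libraries, circles the Cre-positive 4-OHT libraries and squares the Cre-positive ethanol libraries. The share runs between 91.3% for Snrpf and 1.39% for Snrpd2, and for Lsm5 it was 76.3% with 4-OHT and 80.9% with ethanol.

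Levels per kilobase of exonic length spanned 170.8 CPM per kb for Snrpb to 2.96 CPM per kb for Lsm7. The length is the union of all annotated exons, such as 6521 bases for Snrpc and 1038 for Lsm4. It can exceed the length of the expressed mRNA, so the order of genes and of particles is approximate. Snrpb, which encodes the core proteins SmB and SmB′, was followed by Lsm4 (74.8), the U5 protein gene Prpf8 (70.3), Sf3b1 (57.1) and the helicase gene Snrnp200 (47.8 CPM per kb). The 4 lowest levels belonged to Lsm7, Snrpc (3.67), Lsm5 (5.41) and Snrpf (6.46 CPM per kb), and all 4 have pseudogene copies that hold more than 50% of the matching counts. Median levels by particle were 28.4 CPM per kb for U5, 26.8 for U2, 24.2 for the tri-snRNP, 19.4 for the Sm core, 15.2 for the LSm core, 13.46 for U1 and 13.4 for U4/U6. The ranges of levels overlapped between particles, except that the highest U4/U6 gene (Prpf31, 17.3) lay below the lowest U5 gene (Snrnp40, 19.5 CPM per kb).

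**Figure D2:**
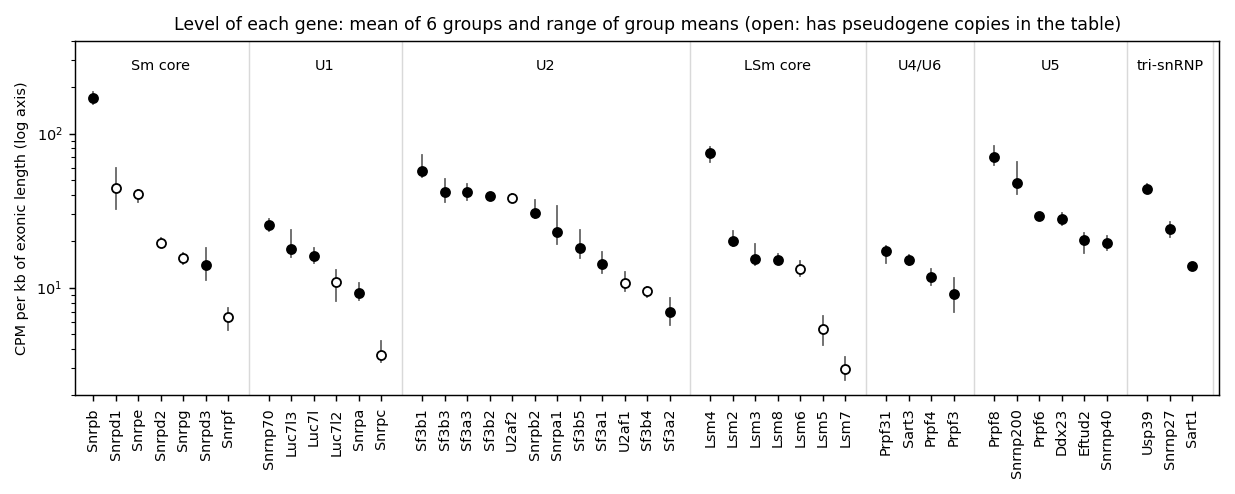
Level of each of the 45 genes in CPM per kb of exonic length on a log axis, grouped by particle; points are the mean over the 6 groups, lines the range of the 6 group means, and open points mark genes with pseudogene copies in the table. Snrpb stands highest at 170.8 CPM per kb, and the lowest 4 points are open.

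In Cre-positive cells 19 of the 45 genes (42.2%) were higher with 4-OHT than with ethanol and 4 (8.89%) were lower, at an adjusted p under 0.05 in edgeR's quasi-likelihood test with Benjamini-Hochberg adjustment over 17609 genes. Over all genes tested 21.1% were higher and 17.2% were lower. The median log2 fold change of the 45 genes was 0.09, against 0.03 over all genes. For 25 of the 45 genes each 4-OHT library lay above each ethanol library, and for 6 below. Over all genes these numbers were 6493 and 5380, so such separation was common. No share of all genes was computed for them, so the 25 and 6 are not read as particular to the 45 genes. The largest increases were in Prpf3 (1.58-fold), Snrpa1 (1.53-fold), Sf3b5 (1.51-fold) and Snrnp200 (1.39-fold), and the largest decrease was in Sf3b3 (0.80-fold). In the GRCm38 annotation these genes lie at chr3:95830124-95855885 (Prpf3), chr7:66059003-66074587 (Snrpa1), chr10:13005343-13009183 (Sf3b5), chr2:127208386-127240451 (Snrnp200) and chr8:110810239-110846787 (Sf3b3), and counts cover their exons. Members were called in most particles: 4 of 7 Sm genes, 4 of 6 U1 genes, 6 of 12 U2 genes, 1 of 7 LSm genes, 1 of 4 U4/U6 genes, 3 of 6 U5 genes and 0 of 3 tri-snRNP genes rose, and 1 gene fell in each of U1, U2, U4/U6 and U5. Particle medians on the log2 scale were 0.16 for the Sm core, 0.16 for U1, 0.10 for U2, 0.08 for the LSm core, 0.07 for U5, 0.03 for U4/U6 and 0.02 for the tri-snRNP; no test between particles was made.

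**Figure D3:**
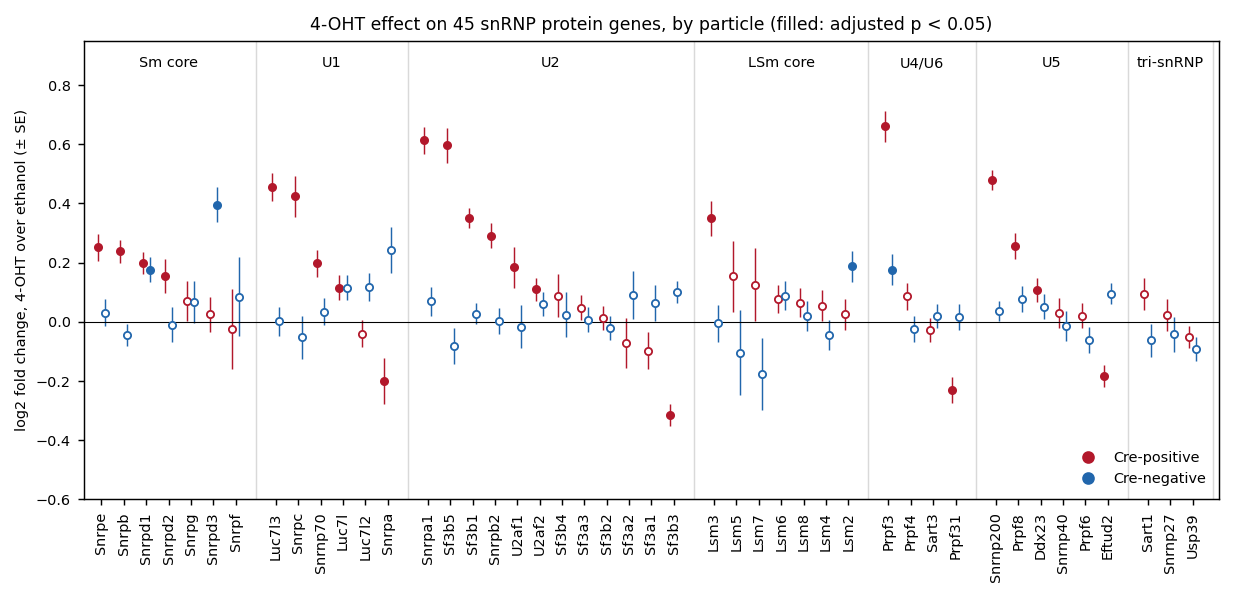
Log2 fold change of 4-OHT over ethanol for each of the 45 genes, in Cre-positive cells (red) and Cre-negative cells (blue), grouped by particle and ordered by the Cre-positive value; bars are standard errors of the fit on 2 libraries a group and filled points have an adjusted p under 0.05. In Cre-positive cells 19 points are filled above 0 and 4 below, and in Cre-negative cells 4 are filled, all above 0.

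Of the Sm genes, whose products form the ring that marks an snRNA for cap modification and nuclear import, 4 rose. Snrpe (SmE) and Snrpb had the largest changes, and their order depended on the copy of Snrpe, which summed with it rose by 0.20 (edgeR adjusted p 0.000524). Snrpe on its own row was at 57.9 and 60.4 CPM with 4-OHT, against 50.5 and 48.8 CPM with ethanol in Cre-positive cells (log2 fold change 0.25 ± 0.05 SE, edgeR adjusted p 0.000179). Snrpb was at 367.6 and 366 CPM with 4-OHT and 320.6 and 301.4 CPM with ethanol (0.24 ± 0.04, edgeR adjusted p 4.64e-05). In both genes each 4-OHT library lay above each ethanol library. Snrpd1 (SmD1) was at 121 and 124 CPM with 4-OHT and 108 and 106 CPM with ethanol in Cre-positive cells (0.20 ± 0.04, edgeR adjusted p 0.000298). It also rose in Cre-negative cells, where it was at 75.6 and 75.1 CPM with 4-OHT and 66.9 and 66.5 CPM with ethanol (0.18 ± 0.04, edgeR adjusted p 0.013). For Snrpd1 the Cre-negative call was lost without the filter on low counts and without any one of those 4 libraries. Its effect did not differ detectably between the genotypes (difference 0.02 ± 0.06, edgeR adjusted p 0.816). Snrpd2 also rose (0.16, edgeR adjusted p 0.0354), a call lost in 5 of 11 alternatives. These were DESeq2, no filter on low counts, the fit of the compared libraries alone, and the fits without ethanol library 4 or 4-OHT library 11. Snrpg, Snrpd3 and Snrpf, with log2 fold changes of 0.07, 0.03 and -0.02, did not pass the test. The Snrpf value is uncertain, since the sum with its copy had the other sign (0.10, edgeR adjusted p 0.16) and did not pass either.

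Snrpd3 (SmD3) differed between the genotypes in the other direction. It was at 44.9 and 49.9 CPM with 4-OHT and 44.9 and 48 CPM with ethanol in Cre-positive cells, groups that overlapped, while Cre-negative cells had 65.1 and 59.6 CPM with 4-OHT and 47.8 and 46.8 CPM with ethanol. It rose in the Cre-negative cells (0.40 ± 0.06, edgeR adjusted p 0.000291), and its effect was lower in Cre-positive than in Cre-negative cells (difference -0.37 ± 0.08, edgeR adjusted p 0.00203). This difference depends on the ethanol reference. Ethanol over untreated was 0.28 for Snrpd3 in Cre-positive cells (edgeR adjusted p 0.00437) and -0.02 in Cre-negative cells, where it did not pass. Against untreated cells Snrpd3 rose with 4-OHT in Cre-positive cells as well (0.30). A genotype difference against untreated cells was not tested. Of its exonic length, 6.74% overlaps Gucd1 on the opposite strand, and the sources used here do not give the strand setting of the counting.

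Of the U1 genes, Luc7l3, whose product is a mammalian relative of yeast Luc7 and associates with U1, was at 172.2 and 171.8 CPM with 4-OHT and 127.3 and 123.8 CPM with ethanol in Cre-positive cells. Its log2 fold change was 0.45 ± 0.05 (edgeR adjusted p 2.19e-07), and both 4-OHT libraries stood above every other library of the series. Snrpc (U1-C, which stabilises the pairing of U1 with the 5′ splice site) was at 29.8 and 29.2 CPM with 4-OHT and 21.5 and 22.5 CPM with ethanol (0.42 ± 0.07, edgeR adjusted p 5.87e-05), and summed with its 3 copies it rose by a similar amount (0.38, edgeR adjusted p 9.17e-06). Snrnp70 (U1-70K, which binds the first stem-loop of U1) was at 207.5 and 202.3 CPM with 4-OHT and 187.8 and 169.8 CPM with ethanol (0.20 ± 0.05, edgeR adjusted p 0.00156). This call was lost without ethanol library 4 (edgeR adjusted p 0.0574).

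Snrpa (U1-A, which binds the second stem-loop) was the U1 gene called lower, at 22.9 and 26.5 CPM with 4-OHT and 26.2 and 30.3 CPM with ethanol (-0.20 ± 0.08, edgeR adjusted p 0.0485). The libraries of the groups overlapped, and the call was lost without ethanol library 4, without 4-OHT library 11 and with DESeq2. It was also lost in the fit of the compared libraries alone and against ethanol and untreated cells as 1 reference. In Cre-negative cells Snrpa was at 32.9 and 30.4 CPM with 4-OHT and 26 and 27.3 CPM with ethanol, a difference that did not pass the test (edgeR adjusted p 0.0736). The difference between the genotypes did pass (-0.44 ± 0.11, edgeR adjusted p 0.00484) and held in each alternative run. Luc7l also rose in Cre-positive cells, by 0.12 (edgeR adjusted p 0.0348), a call lost in 7 of 11 alternatives. These were RLE scaling, DESeq2, no filter on low counts, the compared libraries alone, and leaving out ethanol library 3 or 4 or 4-OHT library 11. Luc7l2 did not pass (-0.04).

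Of the U2 genes, Snrpa1 (U2-A′) and Snrpb2 (U2-B″), which form a heterodimer on the U2 snRNA, both rose. Snrpa1 was at 107.8 and 106.5 CPM with 4-OHT and 71.8 and 68.4 CPM with ethanol in Cre-positive cells (0.61 ± 0.05, edgeR adjusted p 2.26e-09). In Cre-negative cells Snrpa1 was at 64.6 and 62.7 CPM with 4-OHT and 62.1 and 59.2 CPM with ethanol, with a difference between the genotypes of 0.54 ± 0.07 (edgeR adjusted p 5.09e-06). Snrpb2 was at 104.8 and 105.4 CPM with 4-OHT and 89.5 and 82.3 CPM with ethanol in Cre-positive cells (0.29 ± 0.04, edgeR adjusted p 1.68e-05). For both genes the Cre-positive 4-OHT libraries were the highest of the 12.

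The SF3b genes, whose products form the U2 subcomplex that holds the branch site, moved in both directions. Sf3b1, the large subunit around the branch helix, was at 829.9 and 815.6 CPM with 4-OHT and 656.9 and 633.6 CPM with ethanol (0.35 ± 0.04, edgeR adjusted p 1.2e-07). Sf3b5, a small subunit, was at 90.3 and 90.6 CPM with 4-OHT and 64.1 and 55.7 CPM with ethanol (0.60 ± 0.06, edgeR adjusted p 1.08e-07). Both 4-OHT libraries exceeded all others for each gene, although the untreated Cre-positive libraries of Sf3b5, at 74.3 and 65.4 CPM, stood above its ethanol libraries. Sf3b3, which contacts Sf3b1 and Sf3b5 within the subcomplex, was lower, at 440.2 and 454.7 CPM with 4-OHT and 547.3 and 565 CPM with ethanol (-0.31 ± 0.04, edgeR adjusted p 8.46e-07). Its untreated Cre-positive libraries lay between these groups, at 492.9 and 479.8 CPM, so the decrease was smaller against untreated cells (-0.12 ± 0.04, edgeR adjusted p 0.0119), and that call was lost without untreated library 7 or 4-OHT library 11.

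Sf3b2 and Sf3b4 did not pass the test (log2 fold changes 0.01 and 0.09), and neither did the SF3a genes, whose trimer joins SF3b to U2: Sf3a3 at 0.05, Sf3a2 at -0.07 and Sf3a1 at -0.10. The genes of the U2AF heterodimer, which binds the polypyrimidine tract and the 3′ splice site AG ahead of U2, rose by 0.18 for U2af1 (edgeR adjusted p 0.0376) and 0.11 for U2af2 (edgeR adjusted p 0.0321). Summed with the copies the values were 0.15 and 0.10, still called (edgeR adjusted p 0.0155 and 0.0396). Without ethanol library 4, 4-OHT library 11 or 4-OHT library 12 neither gene was called. The same held under DESeq2, without the filter on low counts and in the fit of the compared libraries alone.

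The LSm genes, whose ring binds the 3′ end of U6, had 1 of 7 members called. Lsm3 was at 53.7 and 52.2 CPM with 4-OHT and 44.4 and 38.9 CPM with ethanol in Cre-positive cells (0.35 ± 0.06, edgeR adjusted p 7.41e-05), above every other library. The other 6 had log2 fold changes of 0.03 to 0.15 and did not pass. Lsm2 was called in Cre-negative cells, at 73.1 and 73.7 CPM with 4-OHT and 62.8 and 66 CPM with ethanol (0.19 ± 0.05, edgeR adjusted p 0.0349). The call was lost under DESeq2, without the filter on low counts and without any one of these 4 libraries. For Lsm5 the sign depended on its copies: its own row gave 0.15 (edgeR adjusted p 0.341) and the sum with Gm7846 and Gm10074 gave -0.16 (edgeR adjusted p 0.0642), neither called.

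Of the U4/U6 genes, Prpf3, whose product binds U4/U6 together with Prpf4, had the largest change of the 45. It was at 66.9 and 64.4 CPM with 4-OHT, against 41.6 and 41.5 CPM with ethanol and 40.6 and 38.2 CPM in untreated Cre-positive cells (4-OHT over ethanol 0.66 ± 0.05, edgeR adjusted p 4.22e-09). Cre-negative cells had 59.3 and 56.3 CPM with 4-OHT and 50.1 and 52 CPM with ethanol, a smaller increase (0.18 ± 0.05, edgeR adjusted p 0.0494); the difference between the genotypes was 0.48 ± 0.07 (edgeR adjusted p 5.05e-05). The Cre-negative call was lost under RLE and upper-quartile scaling, under DESeq2, without the filter on low counts and without any one of its 4 libraries. Levels in the 2 genotypes thus started apart, with ethanol and untreated libraries lower in Cre-positive cells.

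Prpf31, which binds the U4 snRNA and tethers U4/U6 to U5, fell to 80.4 and 77.7 CPM with 4-OHT, against 95.5 and 90 CPM with ethanol in Cre-positive cells (-0.23 ± 0.05, edgeR adjusted p 0.000376). Cre-negative cells had 97.7 and 104.7 CPM with 4-OHT and 100.4 and 100.1 CPM with ethanol, and the difference between the genotypes was -0.25 ± 0.06 (edgeR adjusted p 0.00596). The opposite-strand transcript Gm15927 overlaps 18.1% of its exonic length and had a mean of 43.9 counts a library, against 2555 for Prpf31. Prpf4 (0.09) and Sart3 (-0.03), which recycles U4 and U6 after splicing, did not pass.

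Of the U5 genes, Snrnp200 (Brr2, the helicase that unwinds U4 from U6) was at 511.7 and 504.4 CPM with 4-OHT and 358.1 and 371 CPM with ethanol in Cre-positive cells (0.48 ± 0.03, edgeR adjusted p 1.44e-09). Its Cre-negative libraries had 321.8 and 327.2 CPM with 4-OHT and 316.5 and 316.4 CPM with ethanol (difference between the genotypes 0.44 ± 0.05, edgeR adjusted p 1.47e-06). Prpf8, the scaffold of the catalytic centre, was at 617.5 and 619.1 CPM with 4-OHT and 499.3 and 536.3 CPM with ethanol in Cre-positive cells (0.26 ± 0.04, edgeR adjusted p 9.91e-05). Both genes were highest in the Cre-positive 4-OHT libraries.

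Eftud2 (Snu114, the GTPase bound to Prpf8) fell to 140.8 and 142.3 CPM with 4-OHT, against 160.4 and 161 CPM with ethanol in Cre-positive cells (-0.18 ± 0.04, edgeR adjusted p 0.000419), the lowest of the 12 libraries. Cre-negative cells had 188.3 and 193.8 CPM with 4-OHT and 178 and 179.9 CPM with ethanol, and the difference between the genotypes was -0.28 ± 0.05 (edgeR adjusted p 0.000346). Within the U5 core Snrnp200 and Prpf8 thus rose while Eftud2 fell. Ddx23, the helicase Prp28 that displaces U1 from the 5′ splice site, was called higher (0.11, edgeR adjusted p 0.0457), and the call was kept in 1 of 11 alternatives. Snrnp40 (0.03) and Prpf6 (0.02) did not pass. In the tri-snRNP group no gene passed; the smallest p belonged to Sart1, at 88 and 83.1 CPM with 4-OHT and 82.8 and 77.7 CPM with ethanol (0.09, edgeR adjusted p 0.183), with Snrnp27 at 0.02 and Usp39 at -0.05.

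**Figure D4:**
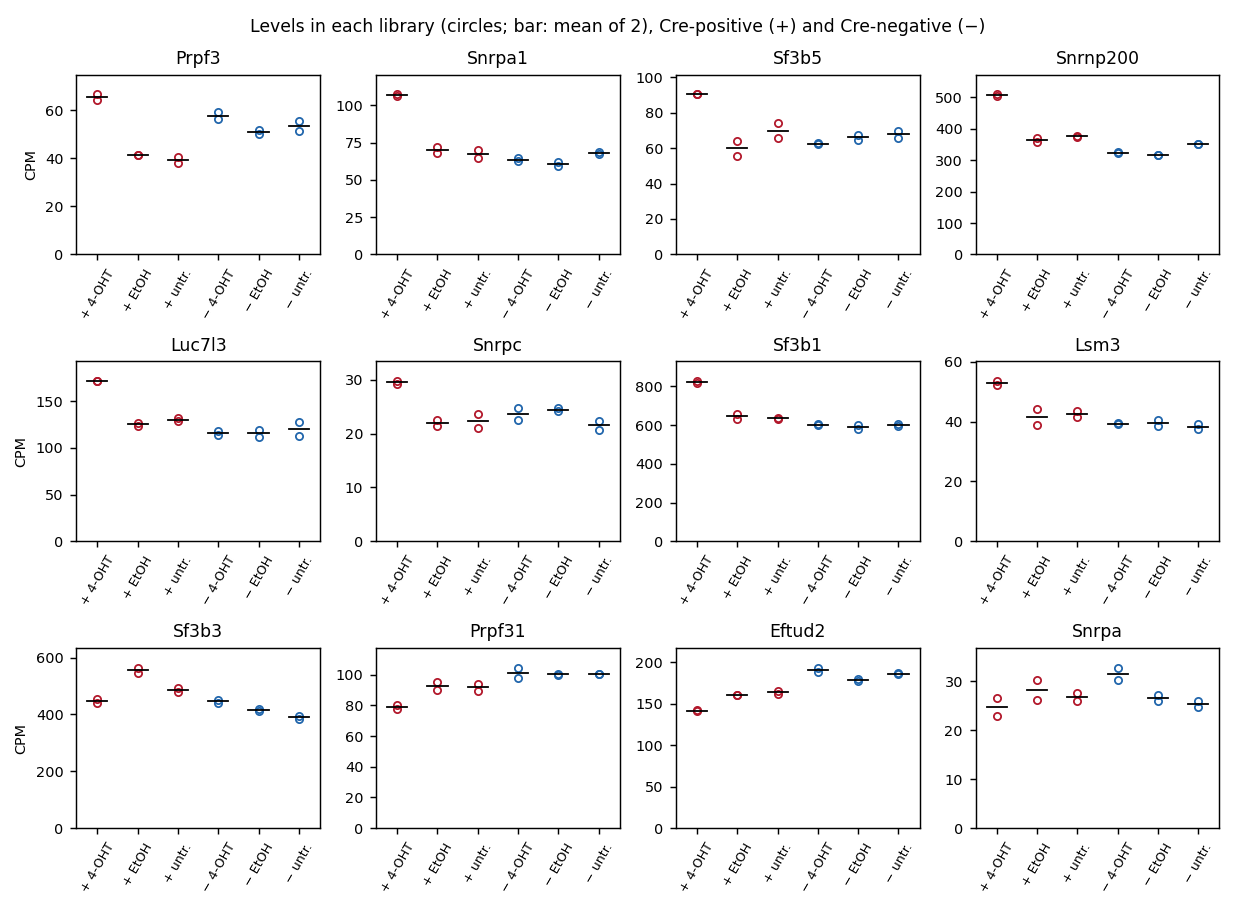
Levels in CPM of 12 genes in each of the 12 libraries, Cre-positive groups (red) left of Cre-negative groups (blue); circles are libraries and bars the means of 2. For the first 8 genes both Cre-positive 4-OHT libraries lie above all others (Prpf3 at 66.9 and 64.4 CPM), and for Prpf31 and Eftud2 they lie below all others (Eftud2 at 140.8 and 142.3 CPM). Over all genes, the Cre-positive 4-OHT libraries lay wholly above the ethanol libraries for 6493 genes and wholly below for 5380, with no share computed. Standing above or below all other libraries was not counted over all genes.

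In Cre-negative cells 4 of the 45 genes (8.89%), namely Snrpd1, Snrpd3, Lsm2 and Prpf3, were higher with 4-OHT than with ethanol, against 3.33% of all genes. None of the 45 was lower, against 2.65% of all genes (edgeR's test; DESeq2 also gave 0, and 1 of the 45 had a log2 fold change below 0 at an unadjusted p under 0.05). Snrpd3 alone was still called when any one of the 4 libraries was left out. The effect of 4-OHT itself differed between Cre-positive and Cre-negative cells for 17 genes: 12 had a higher effect in Cre-positive cells (26.7%, against 14.5% of all genes) and 5 a lower one (11.1%, against 13.8% of all genes). The 12 were Snrpb, Snrpe, Snrpc, Luc7l3, Snrpa1, Snrpb2, Sf3b1, Sf3b5, Lsm3, Prpf3, Prpf8 and Snrnp200, and the 5 were Snrpd3, Snrpa, Sf3b3, Prpf31 and Eftud2. For Snrpe the call was lost when its row was summed with that of its copy (0.13, edgeR adjusted p 0.0888), and also under DESeq2, without the filter on low counts and without any one of Cre-positive ethanol library 4, 4-OHT library 12, Cre-negative 4-OHT libraries 5 and 6 and ethanol library 10. For Prpf8 it was lost under DESeq2 and without any one of Cre-positive ethanol library 3, 4-OHT libraries 11 and 12, Cre-negative 4-OHT library 5 and ethanol libraries 9 and 10. The other 15 held in all 14 alternatives, each of which kept ethanol as the reference in both genotypes.

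Against untreated cells, 20 of the 45 genes (44.4%) were higher in Cre-positive 4-OHT libraries, against 21.0% of all genes, and 3 (6.67%) were lower, against 18.2%. This comparison shares its 4-OHT libraries with the one against ethanol. Of the 20, 14 held in all 10 alternatives; Snrpe, Snrnp70, Luc7l, Sf3b4, U2af2 and Prpf4 did not, and leaving out 1 library gave 14 to 17 higher. The values for the genes with the largest changes stood close to those against ethanol: 0.73 for Prpf3, 0.66 for Snrpa1, 0.44 for Snrnp200, 0.40 for Luc7l3 and 0.40 for Snrpc against untreated cells. Sf3b5 had 0.37 against untreated cells and 0.60 against ethanol. Snrpd3, at 44.9 and 49.9 CPM with 4-OHT and 38.7 and 38 CPM in untreated cells, was called against untreated cells (0.30, edgeR adjusted p 0.00048) and not against ethanol. The 3 lower genes were Prpf31, Eftud2 and Sf3b3, and Lsm5 joined them when summed with its copies (-0.18, edgeR adjusted p 0.0408).

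Ethanol and 4-OHT were given for 5 days and no time is given for untreated cells. Vehicle and time in culture therefore cannot be told apart in comparisons with untreated cells. Few of the genes differed between ethanol and untreated Cre-positive cells: 2 (4.44%) were higher with ethanol, against 8.11% of all genes, and 1 (2.22%) was lower, against 6.84%. These were Snrpd3 (0.28) and Sf3b3 (0.19), which were higher, and Sf3b5 (-0.23), which was lower (edgeR adjusted p 0.00437, 0.000995 and 0.0153). The Snrpd3 call was lost without ethanol library 4 and the Sf3b5 call without ethanol library 4 or untreated library 7, and the higher count was 1 without ethanol library 4 and 4 without untreated library 7. In Cre-negative cells 2 genes (4.44%) were higher with ethanol than untreated, against 12.5% of all genes, and 7 (15.6%) were lower, against 12.0%. Prpf4 (0.19) and Sf3a3 (0.13) were higher. Sf3a3 was no longer called under DESeq2, without the filter on low counts, or without untreated library 1 or ethanol library 9 or 10. Lsm6 (-0.20), Prpf8 (-0.18), Snrpa1 (-0.16), Snrnp200 (-0.15), Luc7l2 (-0.14), Snrnp70 (-0.14) and Ddx23 (-0.13) were lower, and leaving out any one of the 4 libraries reduced these 7 to 3 or 4.

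Untreated Cre-positive and Cre-negative cells also differed. Of the 45 genes 6 (13.3%) were higher in Cre-positive cells, against 24.4% of all genes, and 14 (31.1%) were lower, against 24.6%. Luc7l2 was at 150.5 and 166.1 CPM in Cre-positive and 110.7 and 108 CPM in Cre-negative cells (0.53 ± 0.05, edgeR adjusted p 4.44e-09). Snrpd1 was at 100.7 and 102.5 CPM in Cre-positive and 71.6 and 70.1 CPM in Cre-negative cells (0.52 ± 0.04, edgeR adjusted p 6.13e-10). These gaps exceeded the 4-OHT effect on either gene. Lsm5, Snrnp27, Sf3b3 and Snrnp200 were the other genes that were higher. The Snrnp200 call was lost without the filter on low counts and without any one of the 4 untreated libraries. Lsm5 had a log2 difference of 0.48 on its own row and 0.21 summed with its copies, and its call was lost under DESeq2 and without Cre-negative library 1.

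Among the lower genes Prpf3 was at 40.6 and 38.2 CPM in Cre-positive and 55.4 and 51.6 CPM in Cre-negative untreated cells (-0.44 ± 0.06, edgeR adjusted p 1e-06). Snrpf was at 4.84 and 4.37 CPM in Cre-positive and 6.61 and 6.09 CPM in Cre-negative cells (-0.45 ± 0.14, edgeR adjusted p 0.0124), with most matching counts on its copy; the call was lost under DESeq2 and without Cre-positive library 8 or Cre-negative library 1. The other 12, with log2 differences of -0.13 to -0.32, were Snrpd3, Snrnp40, Lsm6, Snrpb, Lsm4, Ddx23, Eftud2, Snrnp70, Sf3a1, Sf3a3, Prpf4 and Prpf31. Of these 12, Snrnp70, Sf3a1, Sf3a3, Lsm4, Prpf4 and Prpf31 each lost the call in at least 1 alternative. Without Cre-negative library 2, Lsm4, Sf3a3, Prpf4 and Prpf31 lost it, and without Cre-negative library 1, Snrnp70 and Prpf31 did. Without Cre-positive library 8, Sf3a3, Snrnp70 and Prpf31 lost it, and without Cre-positive library 7, Prpf4 did. Sf3a1 lost it in 6 of 10, among them without Cre-positive library 8 and without Cre-negative library 1 or 2, with log2 differences between -0.33 and -0.04. Lsm7, not called on its own row (-0.20), was lower when summed with its copies (-0.42). Without untreated Cre-positive library 8 the number of lower genes was 9. Genotype and cell line cannot be told apart in this comparison. Sox2, Map2 and fibroblast markers such as Col3a1 differed between the same libraries, as given above.

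Other spliceosomal genes were counted beside the snRNP set. Of 29 further particle proteins, 13 were higher and 4 lower with 4-OHT than with ethanol in Cre-positive cells (against 21.1% and 17.2% of all genes; median log2 fold change 0.14, against 0.03 over all genes). Txnl4a (the U5 protein Dim1, 0.71), Prpf39 (a U1-associated protein, 0.53) and Mfap1b (a protein of the spliceosome before activation, 0.41) rose most, and Ddx39b (-0.24) and Wbp4 (-0.21) were among the 4 that fell, with edgeR adjusted p of 8.1e-10, 1.99e-08, 6.95e-05, 4.46e-05 and 0.000901. Of 32 Prp19-complex and catalytic-step factors, which act once the snRNPs are assembled, 14 were higher and 4 lower, against the same 21.1% and 17.2% of all genes (median 0.004). Plrg1 (0.46), Cwc15 (0.39) and Dhx8 (0.36) rose most, and the SR-related matrix genes Srrm2 (-0.58) and Srrm1 (-0.43) and the exon junction gene Casc3 (-0.23) fell most, with edgeR adjusted p of 1.7e-08, 1.76e-06, 8.2e-06, 2.6e-05, 0.000637 and 0.00962.

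Promoters, as 300-base windows around the start site, were taken from RefSeq (GRCm38.p6) for 33 of the 45 genes. For each gene the promoter nearest its annotated 5′ end was used, while the background holds every listed promoter of the tested genes. The start sites used for Prpf6 (9451 bases), Luc7l2 (4389 bases) and Snrpc (1937 bases) lay farthest from that end. The motif letters CCGGAAG, searched on both strands as the core bound by ETS factors, stood in 14 of these 33 (42.4%), against 16.5% of 13287 promoters of tested genes and 8.86% of all 32851 promoters. They occurred in 4 of 13 promoters of genes that rose in Cre-positive cells, 1 of 3 of genes that fell and 9 of 17 of genes not called. GCATGCGC, the core of the NRF1 motif, stood in 9.09% of the 33, against 4.97% of tested genes, and AAGATGGCG, of the YY1 motif, in 6.06%, against 2.8%. GGGCGG stood in 63.6%, against 60.8% of tested genes; CCAAT in 36.4%, against 37.6%; CACGTG in 6.06%, against 9.75%; TGACGTCA in 6.06%, against 2.98%; and TATAAA in 6.06%, against 7.29%. A match is a description of the letters and not of binding.

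Promoters of 3 genes are shown to set a gene that rose with the ETS letters, a gene that fell with them and the gene with the largest rise, which lacks them, side by side; capitals mark every match to the 8 motifs on either strand. Snrnp200 (chr2:127208136-127208435, plus strand) holds the ETS letters and the GC box GGGCGG, Sf3b3 (chr8:110846754-110847053, minus strand) holds the ETS letters, CCAAT and TATAAA, and Prpf3 (chr3:95855836-95856135, minus strand) holds CACGTG.
Snrnp200: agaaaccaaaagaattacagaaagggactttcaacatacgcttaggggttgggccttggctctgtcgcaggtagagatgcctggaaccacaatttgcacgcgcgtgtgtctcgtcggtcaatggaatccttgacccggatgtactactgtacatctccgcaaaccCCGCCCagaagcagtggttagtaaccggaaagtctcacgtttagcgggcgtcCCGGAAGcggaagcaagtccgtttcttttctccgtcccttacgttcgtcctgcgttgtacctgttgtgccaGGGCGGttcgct
Sf3b3: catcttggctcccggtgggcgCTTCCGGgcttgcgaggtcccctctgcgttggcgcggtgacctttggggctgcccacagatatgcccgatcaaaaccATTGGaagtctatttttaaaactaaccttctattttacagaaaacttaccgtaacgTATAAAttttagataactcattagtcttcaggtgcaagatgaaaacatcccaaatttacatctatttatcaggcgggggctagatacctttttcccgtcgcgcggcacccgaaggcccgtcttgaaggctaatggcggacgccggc
Prpf3: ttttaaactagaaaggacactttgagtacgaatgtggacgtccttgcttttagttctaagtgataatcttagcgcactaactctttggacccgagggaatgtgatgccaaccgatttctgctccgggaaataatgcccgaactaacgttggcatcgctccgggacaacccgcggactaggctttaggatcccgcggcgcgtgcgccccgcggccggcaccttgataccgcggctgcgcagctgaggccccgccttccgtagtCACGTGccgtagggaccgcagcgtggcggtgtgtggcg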

How the data were processed

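The values are RSEM expected counts as deposited by the authors, 1 row a gene, stored as whole numbers, for 12 ribosome-depleted stranded total RNA libraries sequenced as paired 75-base reads. Per the submitters' processing notes, the authors used cutadapt 1.11, STAR 2.5.2a, RSEM 1.2.30 and edgeR on GRCm38; the sources used here do not give the annotation or strand setting. Counts were tested with edgeR 4.0.16 (R 4.3.3): filterByExpr kept 17609 genes, TMM factors were 0.972 to 1.02, and 1 quasi-likelihood model with 6 group means gave 7 comparisons, adjusted by Benjamini-Hochberg at 0.05. The SE of a log2 fold change is its size divided by the square root of F. CPM use TMM-scaled totals, and exonic length is the union of GENCODE M21 exons. The biological coefficient of variation was 3.44%. The 45 genes had mean counts of 117.1 to 17850 a library. Replicates differed by more than sampling noise (chi-square per degree of freedom 2.52 to 5.03), so all 12 were kept.

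The members and the lists were chosen with earlier results of these data known. Named genes are, per particle, up to 3 in each direction with the largest change among those called for 4-OHT over ethanol in Cre-positive cells (or the smallest p where none was called), and all called in the difference between genotypes; for other lists, up to 3 per direction, of which 1 gene is not reported here. Pseudogene copies were found with blastn 2.17.0. Alternatives were RLE and upper-quartile scaling, DESeq2, no filter on low counts, fits of the compared libraries alone, a joint ethanol and untreated reference, each library left out, and, chosen after seeing the data, counts summed with those of pseudogene copies. The fit was tested on simulated data.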

Additional observations from a re-analysis of the deposited data

Results flagged for a closer look

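For 17 of the 45 genes the effect of 4-OHT over ethanol differed between Cre-positive and Cre-negative cells by a test of the difference itself (edgeR, Benjamini-Hochberg adjusted over 17609 genes), and each is given as the Cre-positive minus the Cre-negative log2 fold change. In the Sm core the difference was 0.28 for Snrpb, 0.22 for Snrpe and -0.37 for Snrpd3. In U1 it was 0.48 for Snrpc, 0.45 for Luc7l3 and -0.44 for Snrpa. In U2 it was 0.54 for Snrpa1, 0.29 for Snrpb2, 0.32 for Sf3b1, 0.68 for Sf3b5 and -0.42 for Sf3b3. Lsm3 had 0.35. In U4/U6 it was 0.48 for Prpf3 and -0.25 for Prpf31, and in U5 it was 0.18 for Prpf8, 0.44 for Snrnp200 and -0.28 for Eftud2. Each group held 2 libraries, too few to look for a single library that stands apart.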

How the results depend on the processing

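In Cre-positive cells, 13 of the 19 genes higher with 4-OHT than with ethanol and 3 of the 4 lower were called the same way in each of 11 alternatives; Snrpd2, Snrnp70, Luc7l, U2af1, U2af2, Ddx23 and Snrpa were not. DESeq2 called 14 higher and 3 lower, and leaving out 1 library gave 13 to 16 higher and 3 to 5 lower. Over all genes DESeq2 called 2160 higher, against 3709 with edgeR. The difference between genotypes gave 10 to 13 higher and 5 to 7 lower. No called gene changed sign. For 4-OHT over ethanol in Cre-negative cells, the 4 higher genes became 2 with DESeq2, 1 without the filter on low counts and 1 when any library was left out (1 to 1). For ethanol over untreated, leaving out 1 library gave 1 to 4 higher and 0 to 2 lower in Cre-positive cells, and 1 to 2 higher and 3 to 4 lower in Cre-negative cells, where RLE and upper-quartile scaling each gave 4 higher and DESeq2 1. Between the untreated genotypes leaving out 1 library gave 9 to 15 lower. A fit without a library rests on 1 library in its group, assumed to vary like the other groups; the cause of these changes was not tested. No paired analysis was possible because library numbers are not shared between groups. With 2 libraries a group and mean counts from 117.1, small changes in Lsm5, Lsm7 and Snrpf were not detectable.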
